A study of Schizosaccharomyces pombe with 16 samples.

Results

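The genes described here supply membrane and phosphoinositide to the forming autophagosome of the fission yeast Schizosaccharomyces pombe: atg2 and atg9, and the phosphatidylinositol 3-kinase genes vps34, atg6 and atg14. They were taken by name from a table of 7014 genes and all 5 were found, 4 under these symbols and vps34 under pik3, its other name (SPAC458.05). Their identifiers in the table are SPBC31E1.01c (atg2), SPBC15D4.07c (atg9), SPAC20G8.10c (atg6) and SPAC25A8.02 (atg14). RNA was sequenced from eIF2α.S52A cells (a haploid h- strain, eIF2α.S52A:Ura4 ura4-D18) and from WT cells (the 972 h- strain) after 6 h of further growth, when the cultures were nearing stationary phase, and at 0 h, in exponential growth. All cultures grew in YES, a rich medium of yeast extract with supplements, at 30ºC. For each strain and time both the RNA of the polysome fractions of a sucrose gradient and the total RNA were sequenced after poly(A) selection, in 2 replicates, which made 16 libraries in 8 groups.

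In eIF2α.S52A cells the serine of eIF2α that the eIF2 kinases phosphorylate is replaced by alanine, so that this brake on translation initiation cannot be applied. The strain is a single mutant line that also carries the ura4 marker and deletion, which the 972 strain lacks, and the mutation and these markers cannot be told apart. Replicates carry the experiment names A and B in the labels. Whether they were separate cultures is not stated there, so p-values measure the spread between these samples.

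An autophagosome grows from a small membrane cup that engulfs cytoplasm and delivers it to the vacuole. Atg9 is a transmembrane scramblase carried on the vesicles that seed the cup, and Atg2 is a bridge-like protein that passes lipid into it. Vps34 is the lipid kinase that makes phosphatidylinositol 3-phosphate (PI3P), Atg6 (the Beclin 1 orthologue) is a scaffold subunit of the kinase complexes, and Atg14 directs one of these complexes to the autophagosome. Vps38 takes the place of Atg14 in the complex of the endosome. PI3P then recruits reader proteins such as those of the Atg18 family.

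Libraries held 11279417 to 20522997 counts (median 15287672), and the counts of single members were between 37 and 1709. Values are given as CPM, counts scaled to a common library total, after TMM scaling to the bulk of the genes, so that each is a share of the mRNA in its library and not an amount per cell: fewer cells and less mRNA per cell cannot be told apart. The glucose-repressed genes fbp1 and inv1 and the heat shock gene hsp16, which mark the later time, were higher in every 6 h library than in every 0 h library of the same fraction. Of these, fbp1 had 7.99 to 9.90 CPM at 6 h and 0.666 to 1.73 CPM at 0 h in polysome fractions. The eIF2α gene tif211 was counted in every library, and counts per gene do not show a point mutation. Replicates 1 and 2 of eIF2α.S52A cells at 6 h stood apart from each other in both fractions. In polysomes hsp16 was at 778 CPM in replicate 2 and 15400 CPM in replicate 1, with WT cells at 6 h between them (6740 and 4720 CPM). Genes named as cytosolic ribosomal proteins took 44.0% of the polysome counts in replicate 2 and 29.8% in replicate 1, against 28.8% and 26.1% in WT cells at 6 h. The main results of the members in eIF2α.S52A cells at 6 h are therefore also given without both libraries of replicate 2. That fit leaves 1 library in each eIF2α.S52A group at 6 h, so its spread comes from the other groups alone.

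**Figure D1:**
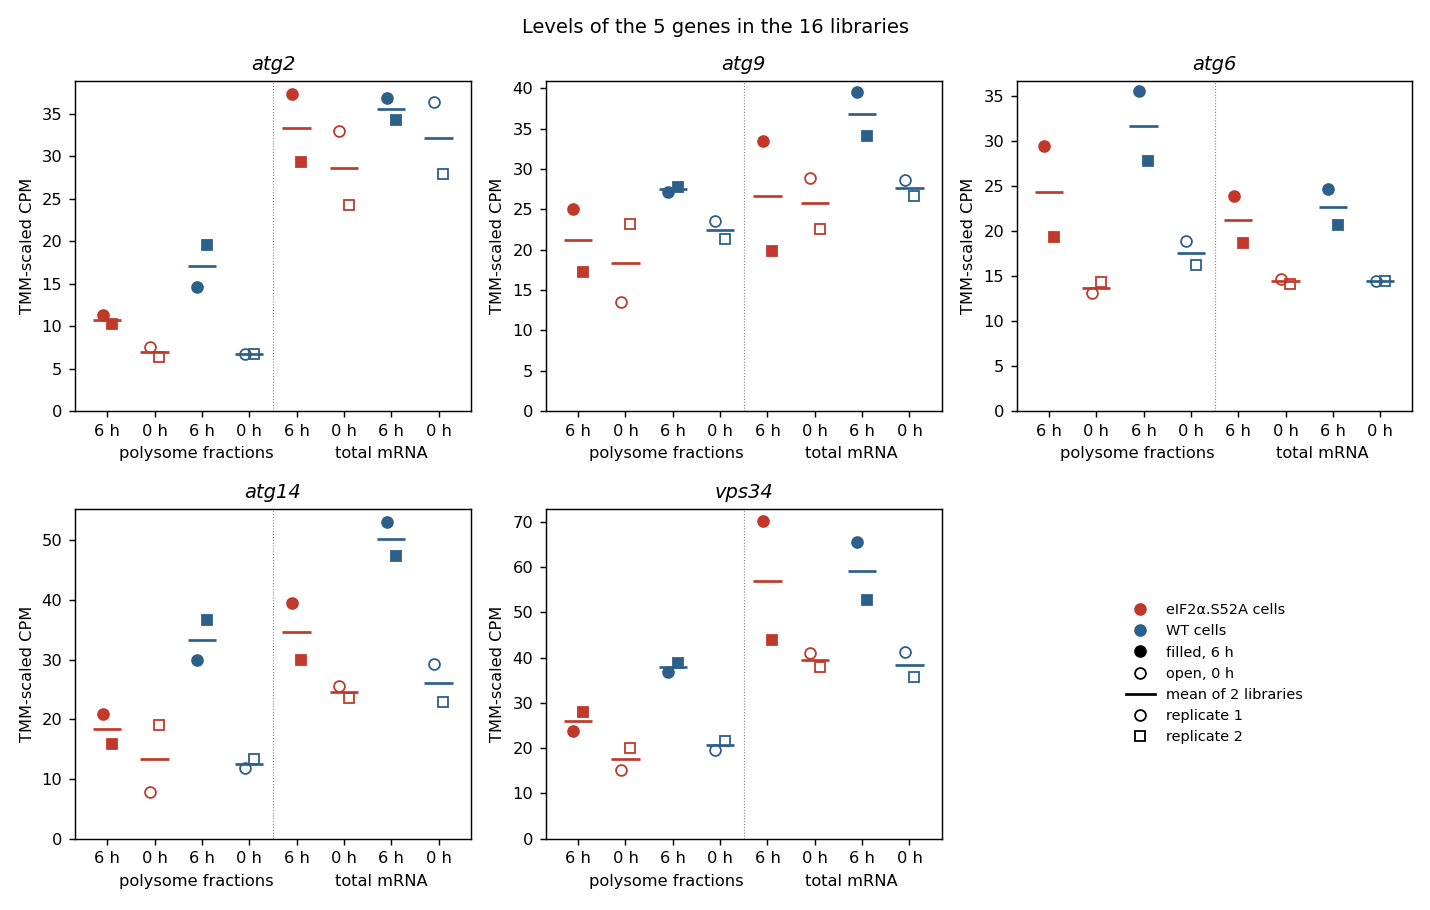
TMM-scaled CPM of each gene (vertical axes, from 0) in the 16 libraries, with polysome fractions in the left part of each panel and total mRNA in the right part, eIF2α.S52A cells in red and WT cells in blue, 6 h filled and 0 h open. Circles are replicate 1, squares are replicate 2 and bars are the mean of 2 libraries; atg2 in WT polysomes stood at 14.6 and 19.6 CPM at 6 h and at 6.66 and 6.70 CPM at 0 h.

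Between 0 h and 6 h, 4 of the 5 genes rose in the polysome fractions of WT cells, by 1.81- to 2.64-fold, and none fell. Of all 6170 genes tested, 8.57% rose in this comparison (adjusted p under 0.05, edgeR's quasi-likelihood test with Benjamini-Hochberg adjustment over all genes). The median log2 change was 0.87 over the 5 members and −0.01 over all genes. In the polysomes of eIF2α.S52A cells no member passed the test (background 3.40% higher). There 3 members had an unadjusted p under 0.05, as did 1494 of all 6170 genes in either direction. DESeq2 called 1 member, and 374 of all genes higher.

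The lipid transfer gene atg2 was at 14.6 and 19.6 CPM in WT polysomes at 6 h, against 6.66 and 6.70 CPM at 0 h, so that both later libraries were above both earlier ones. Its log2 change was 1.36 (SE 0.24, adjusted p = 0.00542, 2.56-fold). It kept its call without any one of the 4 libraries (log2 change 1.18 to 1.55, adjusted p 0.0149 to 0.0444). In eIF2α.S52A polysomes atg2 had 11.3 and 10.2 CPM at 6 h and 7.55 and 6.41 CPM at 0 h. These groups did not overlap either, and the log2 change was 0.63 (SE 0.25, adjusted p = 0.154).

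The scramblase gene atg9 did not pass the test in any fraction of either strain. In WT polysomes it had 27.2 and 27.8 CPM at 6 h and 23.5 and 21.3 CPM at 0 h, a log2 difference of 0.30 with a 95% interval from −0.35 to 0.94 (adjusted p = 0.513). In eIF2α.S52A polysomes it had 25.1 and 17.2 CPM at 6 h and 13.5 and 23.2 CPM at 0 h. The replicates went opposite ways there, by 0.90 and −0.43 on the log2 scale.

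Among the kinase genes, atg14 showed the largest polysome change in WT cells. It had 29.9 and 36.7 CPM at 6 h, against 11.9 and 13.3 CPM at 0 h, a log2 change of 1.40 (SE 0.33, adjusted p = 0.0145, 2.64-fold). In eIF2α.S52A polysomes it had 20.9 and 15.8 CPM at 6 h and 7.76 and 19.0 CPM at 0 h. These groups overlapped, since replicate 1 moved by 1.42 and replicate 2 by −0.27 on the log2 scale (fitted difference 0.43, SE 0.33, adjusted p = 0.469). The fitted difference was −0.05 without replicate 1 at 0 h and 1.24 without replicate 2 at 0 h, and did not pass in either fit. The lowest of these values, at 0 h in replicate 1, rests on 38 counts.

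The catalytic gene vps34 had 36.8 and 38.9 CPM at 6 h in WT polysomes, against 19.7 and 21.6 CPM at 0 h. The replicates lay close together at each time, and the log2 change was 0.87 (SE 0.23, adjusted p = 0.0244, 1.83-fold). In eIF2α.S52A polysomes vps34 had 23.9 and 28.0 CPM at 6 h and 15.1 and 20.1 CPM at 0 h, without overlap (log2 difference 0.55, SE 0.24, adjusted p = 0.179).

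The scaffold gene atg6 had 35.5 and 27.8 CPM in WT polysomes at 6 h, against 18.9 and 16.2 CPM at 0 h (log2 change 0.85, SE 0.24, adjusted p = 0.0293, 1.81-fold). In eIF2α.S52A polysomes it had 29.4 and 19.3 CPM at 6 h and 13.1 and 14.3 CPM at 0 h, a log2 difference of 0.83 (SE 0.24, adjusted p = 0.0598). With the experiment as a replicate block, atg6 passed in eIF2α.S52A polysomes (0.80, adjusted p = 0.0275). Without replicate 2 of these cells at 6 h its log2 difference was 1.10, and the other members were between 0.44 and 0.71.

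The count of 4 in WT polysomes depended on having all 4 libraries. It was 2 without WT replicate 1 at 6 h, with atg2 and atg14 called, and 1 without WT replicate 1 at 0 h, WT replicate 2 at 0 h or WT replicate 2 at 6 h, with atg2 called. The log2 changes stayed between 0.67 and 1.54 for atg6, atg14 and vps34 in these fits.

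**Figure D2:**
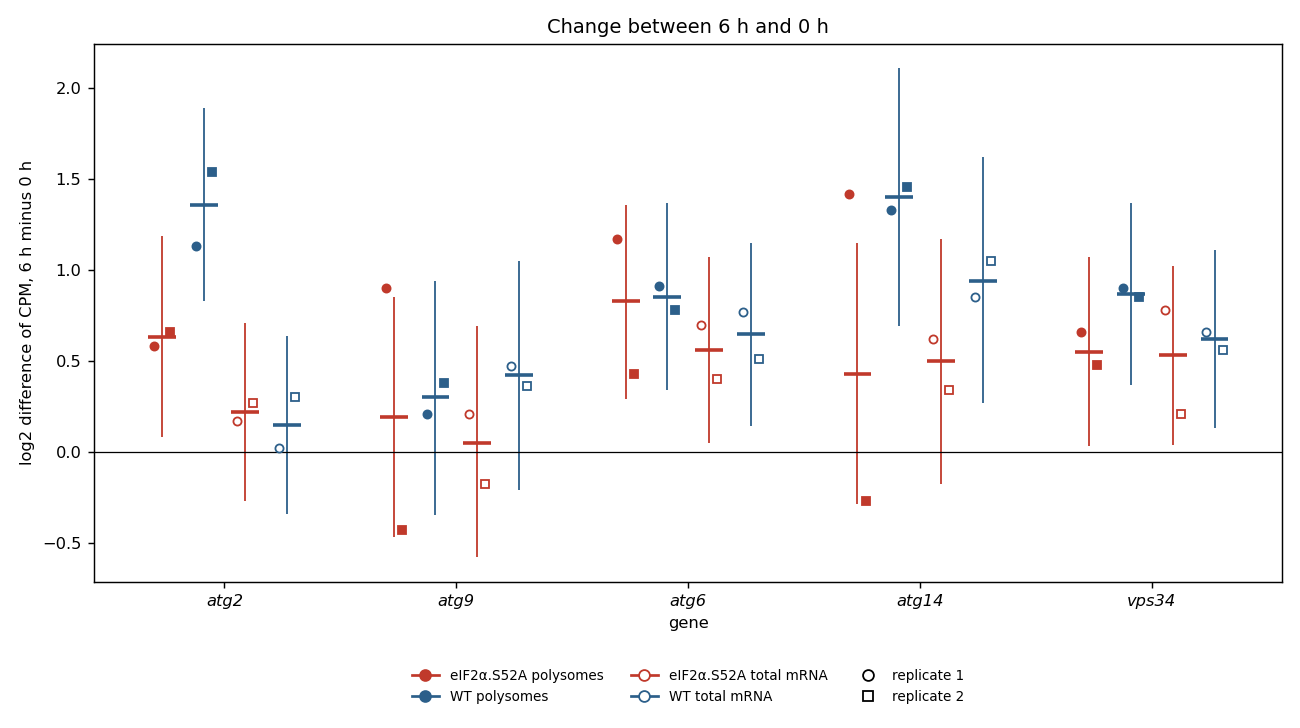
Log2 difference between 6 h and 0 h for each gene, in polysome fractions (filled) and total mRNA (open) of eIF2α.S52A cells (red) and WT cells (blue). Horizontal bars are the fitted values, vertical lines their 95% intervals, and circles and squares the differences within replicates 1 and 2; atg2, atg6, atg14 and vps34 lie above 0 in WT polysomes, and atg9 and atg14 in eIF2α.S52A polysomes have replicates on either side of 0.

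In total mRNA the same 5 genes had fitted differences above 0 in both strains, and none passed the test. The background was 2.12% of genes higher in eIF2α.S52A cells and 6.00% in WT cells. At an unadjusted p under 0.05 there were 2 members in eIF2α.S52A cells and 3 in WT cells. Of all 6170 genes, 1121 and 1822 were under it in either direction. DESeq2 called 0 and 1 members, and 292 and 498 of all genes higher. The members' median log2 difference was 0.50 in eIF2α.S52A cells (−0.04 over all genes) and 0.62 in WT cells (−0.01 over all genes).

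The levels of atg14 in WT total mRNA were 53.0 and 47.3 CPM at 6 h and 29.3 and 22.9 CPM at 0 h, without overlap (log2 difference 0.94, SE 0.31, adjusted p = 0.0667). Those of vps34 were 65.4 and 52.7 CPM at 6 h and 41.3 and 35.6 CPM at 0 h (0.62, SE 0.22, adjusted p = 0.0893). Those of atg6 were 24.6 and 20.6 CPM at 6 h and 14.4 CPM in both libraries at 0 h (0.65, SE 0.23, adjusted p = 0.0879). With the replicate block atg6 and atg14 passed (0.64 and 0.94, adjusted p = 0.0331 and 0.0451), in a fit that called 1374 genes, against 741 genes without the block. A fit of the 4 WT total mRNA libraries alone called these 3 kinase genes (adjusted p = 0.0382 for atg6, 0.0137 for atg14 and 0.0338 for vps34). That fit called 1677 genes of all, 803 of them higher, against 370 higher in the main fit.

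In contrast, atg2 in WT total mRNA had 36.9 and 34.3 CPM at 6 h and 36.4 and 27.9 CPM at 0 h. These libraries overlapped, and the log2 difference of 0.15 had a 95% interval from −0.34 to 0.64 (adjusted p = 0.714). For atg9 the values were 39.6 and 34.1 CPM at 6 h and 28.6 and 26.6 CPM at 0 h (0.42, SE 0.29, adjusted p = 0.377), without overlap.

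In eIF2α.S52A total mRNA, atg6 had 23.9 and 18.6 CPM at 6 h and 14.7 and 14.1 CPM at 0 h (0.56, SE 0.23, adjusted p = 0.226), and atg14 had 39.5 and 29.9 CPM at 6 h and 25.6 and 23.5 CPM at 0 h (0.50, SE 0.31, adjusted p = 0.424). For vps34 the levels were 70.1 CPM in replicate 1 and 43.9 CPM in replicate 2 at 6 h, against 40.9 and 37.9 CPM at 0 h (0.53, SE 0.22, adjusted p = 0.233). Without replicate 2 at 6 h vps34 was at 0.83, and the other members were between 0.38 and 0.73. The levels of atg2 were 37.3 and 29.3 CPM at 6 h and 33.0 and 24.2 CPM at 0 h (0.22, SE 0.23, adjusted p = 0.645), and those of atg9 were 33.5 and 19.9 CPM at 6 h and 28.9 and 22.6 CPM at 0 h (0.05, SE 0.29, adjusted p = 0.949), both with overlap.

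Translation efficiency (TE) is taken here as the level in polysomes relative to that in total mRNA. In WT cells the TE of atg2 at 6 h was above that at 0 h by 1.21 on the log2 scale (SE 0.33, 2.32-fold), by 1.11 in replicate 1 and 1.25 in replicate 2. Ranked by p-value it was gene 19 of the 6170 tested, but its adjusted p was 1, and 1 gene of all (0.0162%) passed in this comparison. Its value was between 1.21 and 1.50 under the other fits with all the libraries of the comparison and between 1.01 and 1.41 without any one library, with an adjusted p no lower than 0.470. In eIF2α.S52A cells the TE difference of atg2 was 0.41 (SE 0.34), with 0.40 and 0.39 in the 2 replicates. The difference between the strains in this change was −0.80 with a 95% interval from −1.83 to 0.23, and it did not pass (adjusted p = 1). Without replicate 2 of eIF2α.S52A cells at 6 h the TE difference of atg2 in these cells was 0.33 and the difference between the strains −0.89 (adjusted p = 1 for both).

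The TE differences of the other members between 6 h and 0 h were −0.07 to 0.26 in eIF2α.S52A cells and −0.12 to 0.46 in WT cells, and none had an unadjusted p under 0.05. For atg14 in eIF2α.S52A cells the replicates were at 0.80 and −0.61. Without replicate 2 of eIF2α.S52A cells at 6 h these members were between −0.39 (vps34) and 0.37 (atg6) in eIF2α.S52A cells, and none passed.

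Polysome levels relative to total mRNA at a single time also set atg2 apart within the group. Its polysome level was 11.3 and 10.2 CPM in eIF2α.S52A cells at 6 h, against 37.3 and 29.3 CPM in total mRNA (log2 difference −1.63, adjusted p = 0.000239), and 7.55 and 6.41 CPM at 0 h, against 33.0 and 24.2 CPM (−2.04, adjusted p = 6.27e-05). In WT cells it was 14.6 and 19.6 CPM at 6 h, against 36.9 and 34.3 CPM in total mRNA (−1.05, adjusted p = 0.00403), and 6.66 and 6.70 CPM at 0 h, against 36.4 and 27.9 CPM (−2.27, adjusted p = 8.55e-05). Without any one library these 4 log2 differences stayed between −2.45 and −0.86. In eIF2α.S52A cells at 6 h the value without both libraries of replicate 2 was −1.72. At 0 h in WT cells 2.24% of the genes tested had an equal or lower value, and at 6 h 14.2% did. In eIF2α.S52A cells these shares were 5.41% at 0 h and 7.67% at 6 h.

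The kinase gene vps34 was also lower in polysomes than in total mRNA in all 4 conditions, by a log2 difference of −1.13 in eIF2α.S52A cells at 6 h, −1.15 in eIF2α.S52A cells at 0 h, −0.64 in WT cells at 6 h and −0.89 in WT cells at 0 h (adjusted p = 0.00197, 0.00193, 0.0427 and 0.00974). Without replicate 2 of eIF2α.S52A cells at 6 h the first of these values was −1.55. The call at 6 h in WT cells was lost without any one of its 4 libraries (−0.79 to −0.48) and with DESeq2 (−0.57, adjusted p = 0.0601). For atg14 the values in the same order were −0.92, −0.85, −0.59 and −1.05 (adjusted p = 0.0346, 0.0526, 0.158 and 0.0234). It was thus called lower at 6 h in eIF2α.S52A cells and at 0 h in WT cells, and the first of these calls was lost without replicate 2 (−0.91, adjusted p = 0.130). A fit of the libraries of the groups compared alone lost it too (−0.98, adjusted p = 0.0688), and called atg14 lower in WT cells at 6 h (−0.59, adjusted p = 0.0376). In WT cells at 0 h the call of vps34 was lost without replicate 1 of either fraction (adjusted p up to 0.069), and that of atg14 also without replicate 2 of the polysomes (−1.22 to −0.86 over the fits without any one library, adjusted p up to 0.139). In eIF2α.S52A cells atg14 lost its call at 6 h without replicate 1 of either fraction or replicate 2 of the polysomes (adjusted p up to 0.171), and gained one at 0 h without replicate 2 of the polysomes and with DESeq2 (−0.82, adjusted p = 0.0396). Of all genes, 21.0%, 22.4%, 18.3% and 18.4% were called lower in these 4 comparisons, and 3, 2, 2 and 3 of the 5 members.

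The levels of atg9 and atg6 did not differ between the fractions beyond the test. For atg9 the log2 difference between polysomes and total mRNA was between −0.47 and −0.30, and for atg6 between −0.07 and 0.49. The sign of atg6 depended on the scaling. With scaling by library size alone its value was −0.91 in eIF2α.S52A cells at 6 h (adjusted p = 0.00801) and −0.90 in WT cells at 0 h (adjusted p = 0.00946), against 0.20 and 0.28 with TMM. That scaling moved the median of all genes to between −1.62 and −0.95 in these comparisons, so a member's polysome level is given relative to the bulk of the mRNAs.

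**Figure D3:**
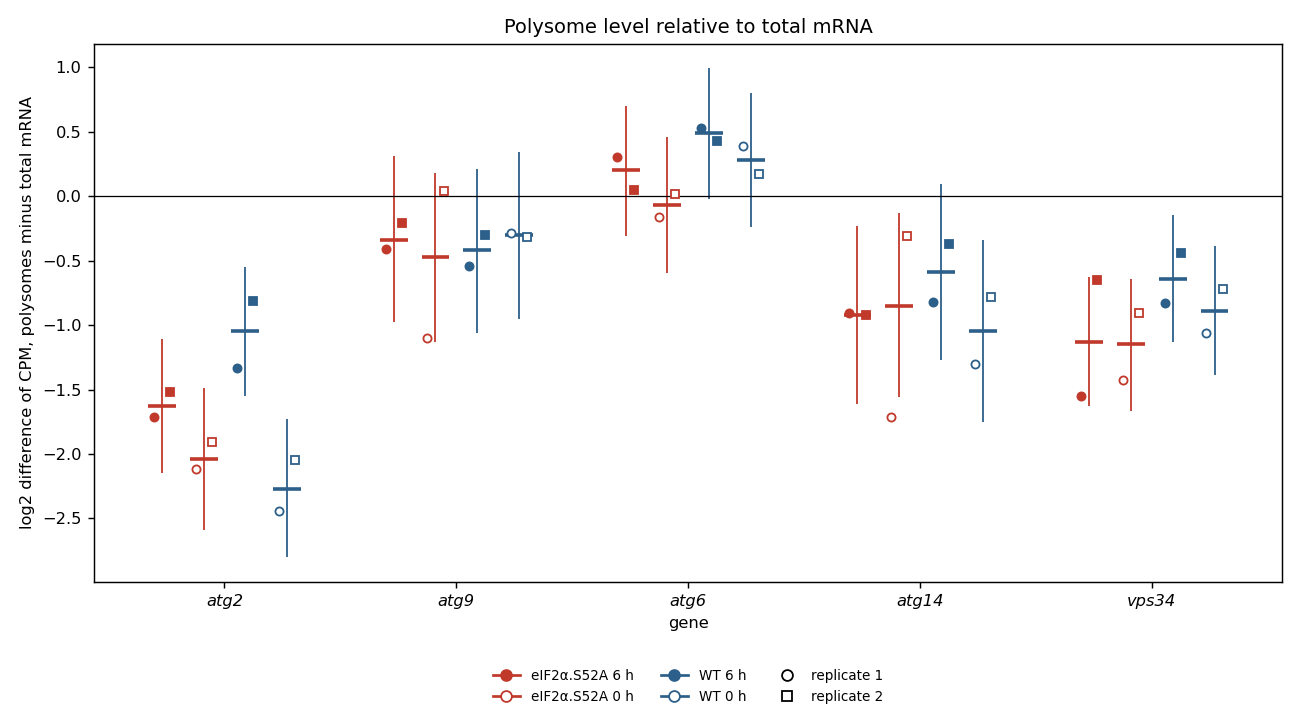
Log2 difference between polysome fractions and total mRNA for each gene, in eIF2α.S52A cells (red) and WT cells (blue) at 6 h (filled) and 0 h (open). Horizontal bars are fitted values, vertical lines 95% intervals, and circles and squares the differences within replicates 1 and 2; atg2 lies lowest, at −2.27 in WT cells at 0 h and −1.05 in WT cells at 6 h.

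Setting eIF2α.S52A cells against WT cells asks whether eIF2α phosphorylation bears on these genes. At 6 h all 5 genes were at fitted values below 0 in polysomes, with differences of −0.86 to −0.38. None passed the test (background 0.438% of genes lower, 0 members called by DESeq2). An unadjusted p under 0.05 was found for 3 members, and for 1178 of all 6170 genes in either direction. For atg14 the values were 20.9 and 15.8 CPM in eIF2α.S52A cells, against 29.9 and 36.7 CPM in WT cells (log2 difference −0.86, SE 0.32, adjusted p = 0.169). For atg2 they were 11.3 and 10.2 CPM, against 14.6 and 19.6 CPM in WT cells (−0.67, SE 0.24, adjusted p = 0.153). For vps34 they were 23.9 and 28.0 CPM, against 36.8 and 38.9 CPM in WT cells (−0.54, SE 0.23, adjusted p = 0.218).

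In these 3 genes the groups did not overlap. In each of the 5 genes the eIF2α.S52A library was below the WT library of the same replicate number. For neither pattern was the share of all genes counted, so these are descriptions of the members only. For atg6 the values were 29.4 and 19.3 CPM in eIF2α.S52A cells, against 35.5 and 27.8 CPM in WT cells (−0.38, SE 0.23, adjusted p = 0.412), with overlap. For atg9 they were 25.1 and 17.2 CPM, against 27.2 and 27.8 CPM in WT cells (−0.38, SE 0.30, adjusted p = 0.526), without overlap. Without replicate 2 of eIF2α.S52A cells at 6 h the differences were −0.67 for atg14, −0.60 for atg2, −0.66 for vps34, −0.10 for atg6 and −0.13 for atg9. Scaling by library size alone called atg2 lower (−1.03, adjusted p = 0.0363), where the median of all genes was −0.35.

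In polysomes at 0 h the differences between eIF2α.S52A and WT cells were −0.35 to 0.11. In total mRNA they were −0.53 to −0.05 at 6 h and −0.17 to 0.04 at 0 h. Without replicate 2 of eIF2α.S52A cells at 6 h, the total mRNA differences at 6 h were −0.35 for atg14, −0.14 for atg9, 0.06 for atg2, 0.08 for atg6 and 0.25 for vps34, and none passed. No member passed, and none had an unadjusted p under 0.05 in these 3 comparisons. The background was 0 genes called in polysomes at 0 h, 32 genes (0.519%) in total mRNA at 6 h and 1 gene (0.0162%) in total mRNA at 0 h.

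The test of the difference between the strains in the polysome change with time called 0 of the 6170 genes (345 at an unadjusted p under 0.05, none of them a member, and 0 members called by DESeq2). The difference, eIF2α.S52A minus WT, was −0.97 for atg14 (95% interval −1.98 to 0.03), −0.73 for atg2 (−1.49 to 0.04), −0.32 for vps34 (−1.04 to 0.40), −0.11 for atg9 (−1.03 to 0.82) and −0.03 for atg6 (−0.77 to 0.72). The rise seen in WT polysomes is thus not shown to differ from the change in eIF2α.S52A polysomes, and intervals of this width do not show that the strains act alike. Without replicate 2 of eIF2α.S52A cells at 6 h, atg14 was at −0.79, atg2 at −0.65, vps34 at −0.43, atg9 at 0.14 and atg6 at 0.25. The value of atg14 was −0.16 without replicate 2 of eIF2α.S52A polysomes at 0 h and −1.45 without replicate 1 of these.

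**Figure D4:**
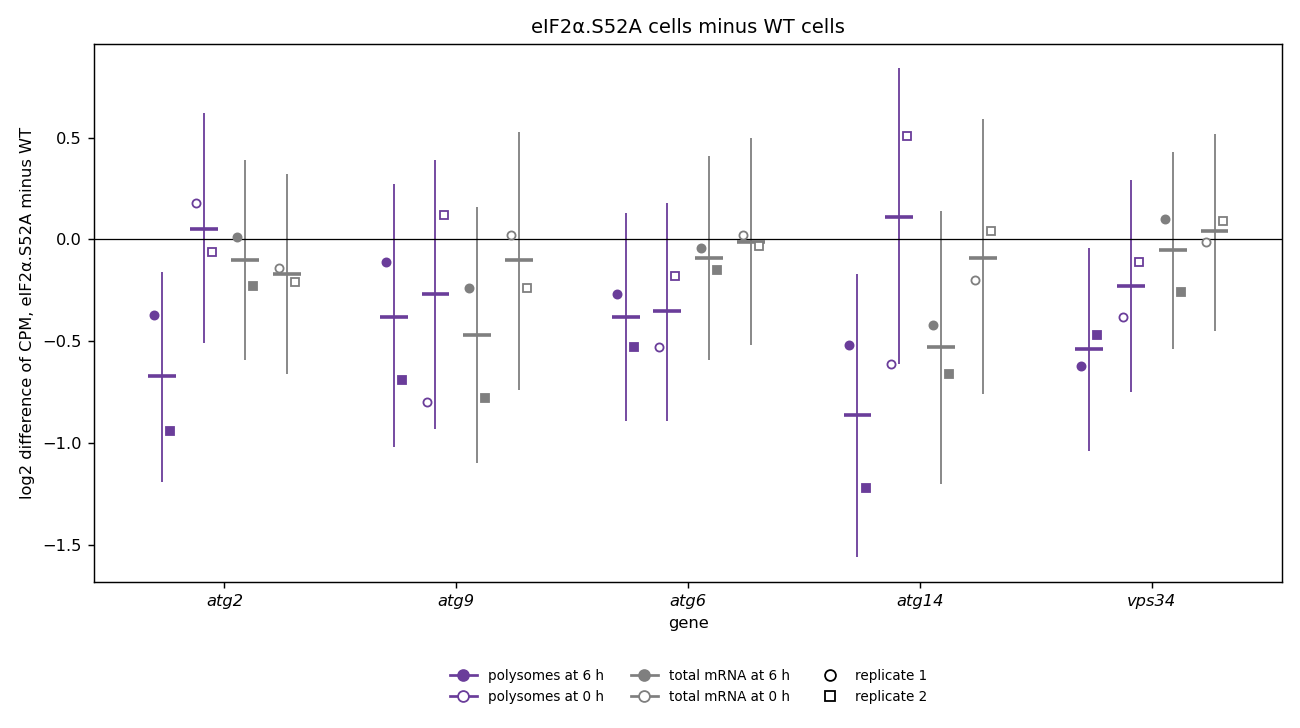
Log2 difference between eIF2α.S52A cells and WT cells for each gene, in polysome fractions (purple) and total mRNA (grey) at 6 h (filled) and 0 h (open). Horizontal bars are fitted values, vertical lines 95% intervals, and circles and squares the differences between libraries of the same replicate number; in polysomes at 6 h both replicates of all 5 genes lie below 0, at fitted values of −0.86 to −0.38.

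Other genes of the pathway were described by 4 lists of 31 genes, of which 29 were tested. In polysomes, 1 of the 29 rose in eIF2α.S52A cells, against 9 in WT cells, and none fell, where 3.40% and 8.57% of all genes rose. The medians of their log2 changes were 0.41 in eIF2α.S52A cells and 0.75 in WT cells. These comparisons share no libraries, but the difference between them was tested gene by gene as above and called none.

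The kinase partners and PI3P readers gave 0 of 9 genes called in eIF2α.S52A polysomes (3.40% of all genes rose) and 3 of 9 that rose in WT polysomes (8.57%). These 3 were ppk19, the Vps15 regulatory subunit of the kinase (log2 change 0.83, adjusted p = 0.0335), atg18b, a PI3P-binding protein of the Atg18 family (0.83, adjusted p = 0.0235), and ctl1, a partner of Atg9 (0.81, adjusted p = 0.0306). In eIF2α.S52A polysomes ppk19 was at 0.30, atg18b at 0.65 and ctl1 at 0.50. The endosomal subunit gene vps38 was at 0.55 in eIF2α.S52A polysomes (SE 0.22, adjusted p = 0.144) and 0.09 in WT polysomes (SE 0.21, adjusted p = 0.800). In WT polysomes the genes for the subunits Vps34, Vps15, Atg6 and Atg14 were called higher and that for Vps38 was not. The gene atg38 of the Atg14 complex was not called either (0.81, SE 0.54, adjusted p = 0.320). The difference between vps38 and the genes called was not tested.

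Of the Atg1 complex, which starts autophagosome formation, 3 of 5 genes rose in WT polysomes, with atg17 at 2.08, atg13 at 1.22 and atg1 at 0.93. Of the genes that conjugate Atg8 and Atg12, 3 of 7 rose, with atg8 at 1.44, atg4 at 1.34 and atg10 at 0.75. None of these 12 genes was called in eIF2α.S52A polysomes, where atg4 was at 1.47 (adjusted p = 0.0547), atg17 at 0.97, atg13 at 0.41, atg1 and atg8 at 0.21 and atg10 at −0.12. Of 8 endosomal users of PI3P, which include the retromer subunits, none was called in WT polysomes. The share of all genes that rose was 8.57% in WT polysomes and 3.40% in eIF2α.S52A polysomes. In eIF2α.S52A polysomes sst4, whose product sorts ubiquitinated cargo at the endosome, rose by 1.57 (adjusted p = 0.0456), and in WT polysomes it was at 1.18 (adjusted p = 0.0672).

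In total mRNA, 0 of the 29 genes were called in eIF2α.S52A cells (2.12% of all genes rose) and 6 rose in WT cells (6.00% of all genes), namely atg17 (1.78), atg8 (1.22), atg4 (1.20), atg13 (1.10), atg18b (1.0) and atg18c (0.76). In eIF2α.S52A total mRNA these were at 1.26, 0.41, 1.15, 0.67, 0.62 and 0.61 in the same order.

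The low polysome level of atg2 and vps34 was shared by genes of the partner list. Of its 9 tested genes, 7 were lower in polysomes than in total mRNA in eIF2α.S52A cells at each time, and 6 in WT cells at each time. Of all genes, 21.0% (6 h) and 22.4% (0 h) were lower in eIF2α.S52A cells and 18.3% and 18.4% in WT cells. The list medians were −1.18 to −1.02, where the median of all genes was −0.07 to −0.04. In WT cells at 0 h vps38 was at −1.51, ppk19 at −1.10 and atg38, whose product stabilises the Atg14 complex, at −2.48. The medians of the other lists in the 4 conditions were between −0.84 and −0.37 (Atg1 complex), −0.29 and −0.12 (conjugation) and −0.17 and 0.02 (endosomal users).

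**Figure D5:**
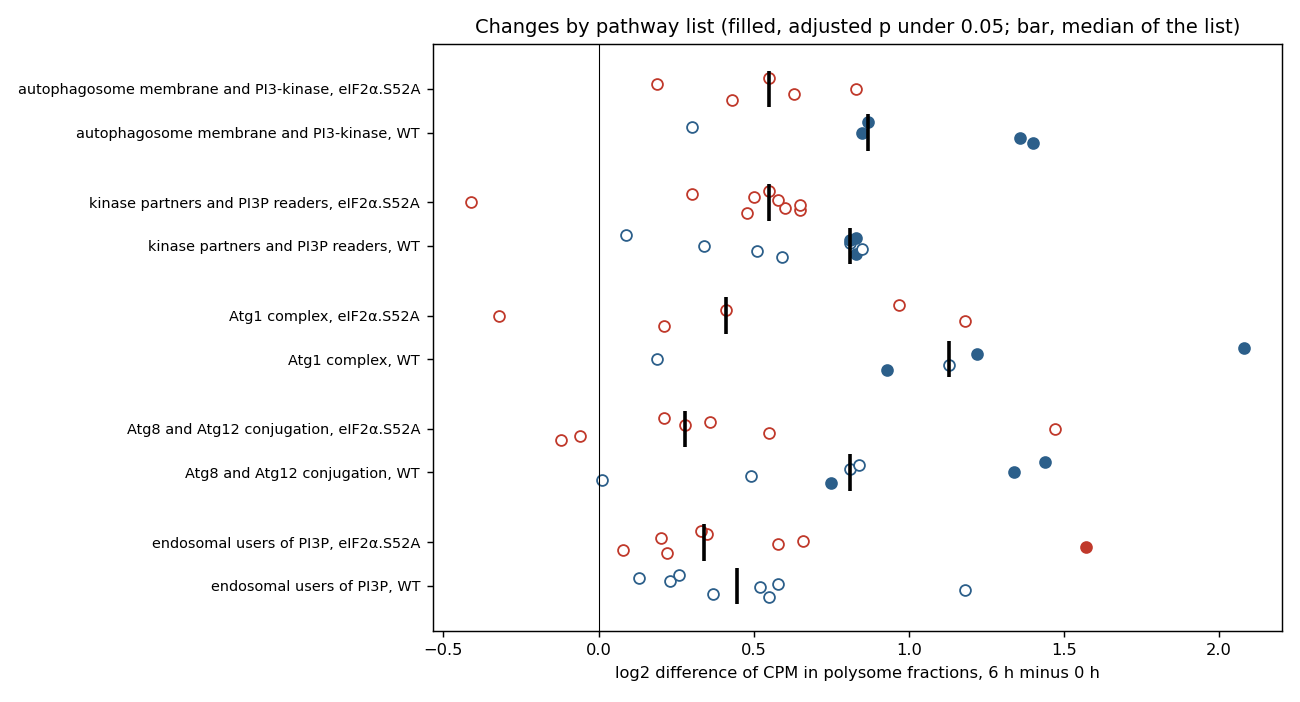
Log2 difference in polysome fractions between 6 h and 0 h (horizontal axis) for the 5 genes and for the tested genes of 4 pathway lists, with eIF2α.S52A cells (red) above WT cells (blue) in each list. Each point is 1 gene, filled where its adjusted p was under 0.05, and the bar is the median of the list, which was 0.55 in eIF2α.S52A cells and 0.87 in WT cells for the 5 genes.

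Across the 16 libraries the members did not all run together. As a description over libraries that share strain, time and fraction, Pearson's r of log2 CPM was 0.926 between vps34 and atg14 and 0.918 between vps34 and atg2, and 0.0959 between atg2 and atg6. Within the 8 polysome libraries r between atg2 and atg6 was 0.828, and within the 8 total mRNA libraries 0.611. The low value over all 16 goes with the fraction: atg2 averaged 3.27 in polysomes and 5.01 in total mRNA on the log2 CPM scale, and atg6 averaged 4.37 and 4.15.

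Among 4317 other genes with a symbol, those most like each member over the 16 libraries were tax4 (r = 0.984) and par2 (0.981) for atg2, spn1 (0.885) and vps902 (0.873) for atg9, gst3 (0.954) and cum1 (0.949) for atg6, ubp8 (0.934) and scd1 (0.933) for atg14, and are2 (0.980) and ppk14 (0.977) for vps34. None of these 10 genes was a member or in the lists, though tax4 is described in the annotation as a predicted autophagy protein. The closest genes of atg9 were less like it than those of the other members.

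In the RefSeq annotation read for neighbours, atg9 overlaps SPBC15D4.08c on the same strand, so that some reads at their ends may be counted for either or neither. This neighbour had at most 100 counts in a library. The overlap of atg14 with acp2, and that of vps34 with the non-coding SPNCRNA.1020, are with genes on the opposite strand, which the strand-specific counting tells apart. The non-coding genes that overlap atg2 and atg6 also lie on the opposite strand.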

How the data were processed

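The deposited table held raw counts per gene for 16 libraries, which the authors made from stranded poly(A) libraries with FastQC, STAR (alignment to ASM294v2 with the Ensembl Fungi annotation), SAMtools and strand-specific counting in QoRTs. A second table of normalised values was not used. Counts were analysed as deposited in R 4.3.3 with edgeR 4.0.16: genes were kept by filterByExpr (6170 of 7014), scaled by TMM and fitted with 1 mean for each of the 8 groups. The 17 comparisons were tested by the quasi-likelihood F-test with Benjamini-Hochberg adjustment over all genes, at a threshold of 0.05. SE is the log2 difference divided by the square root of F, and 95% intervals use the residual and prior degrees of freedom (8 and 4.1). Values per library are TMM-scaled CPM, with a prior count of 1 on the log2 scale. The code was tested on simulated data.

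The 5 members and the lists were chosen with earlier results of these data known. All members are named in every comparison. Of each list at most 4 called genes with the largest change are named. Beside these, vps38, ppk19 and atg38, of the kinase complexes, and sst4 were also named outside this rule after their values were seen. For likeness the 2 genes with the highest r are named. Likeness left out 44 rows of the table whose identifier differs from the accession in their description, none of them a member, and atg16, among them, and atg24b were not analysed here.

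Experiment names in the labels follow the replicate numbers. Deviations of replicate 1 correlated between groups with r from −0.0898 to 0.578 (median 0.264) over 28 pairs of groups, 22 of them over 0.1, and the fit with a replicate block is given where it changed a call. Of the table's identifiers, 6846 matched RefSeq locus tags. RefSeq's assembly is a later one than ASM294v2, so coordinates and sequences are not given, and promoter motifs were not searched.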

Additional observations from a re-analysis of the deposited data

How the results depend on the processing

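Alternatives were scaling by DESeq2's size factors in edgeR, scaling by library size alone, DESeq2 itself, no filter on low counts, the libraries of the groups compared alone, a replicate block, each library left out, and both replicate 2 libraries of eIF2α.S52A cells at 6 h left out together. The last of these fits leaves 1 library in each eIF2α.S52A group at 6 h. Some of its calls differed from the main fit, in both strains. They are not counted below for the polysome and total mRNA changes with time. In that fit atg6 was at 1.10 in eIF2α.S52A polysomes, against 0.83 in the main fit. In total mRNA vps34 was at 0.83 in eIF2α.S52A cells, against 0.53, and at 0.62 in WT cells in both fits. For the polysome change with time, eIF2α.S52A cells had 0 members called, 3 with library size alone, 1 with DESeq2 and 1 with the replicate block. Of all genes, 210 were called higher in the main fit, and 1902, 374 and 416 under these alternatives in the same order. With any one library left out, atg6 was between 0.49 and 1.10 in eIF2α.S52A polysomes, and whether it passed depended on the library. WT cells had 4 members called and 1 to 2 with any one library left out. For total mRNA, eIF2α.S52A cells had 0 called in the main fit and in the alternatives counted here. WT cells had 0 called, 3 with library size alone, 1 with DESeq2, 2 with the replicate block and 3 in a fit of the WT total mRNA libraries alone. Of all genes, 370 were called higher in the main fit of WT total mRNA, and 637, 498, 681 and 803 under these alternatives in the same order. In polysomes at 6 h, eIF2α.S52A against WT cells gave 0 called and 1 with library size alone. The TE changes, the other strain comparisons and the differences between the strains in a change had 0 members called under every alternative run.

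Between polysomes and total mRNA, library size alone called 5 members lower in both eIF2α.S52A comparisons and in WT cells at 0 h, and 4 in WT cells at 6 h. Most genes called under that scaling were lower too. In eIF2α.S52A cells it called 4076 of 6170 genes at 6 h (257 higher) and 4863 at 0 h (195 higher). In WT cells it called 3608 at 6 h (273 higher) and 4162 at 0 h (200 higher). For atg6 library size alone turned the values to −0.91 in eIF2α.S52A cells at 6 h and −0.90 in WT cells at 0 h. In WT cells at 6 h, where 2 were called, DESeq2's size factors and DESeq2 called 1 each, leaving out any one library gave 1, and the libraries of the groups compared alone gave 3. In eIF2α.S52A cells at 6 h, with 3 called, these libraries alone gave 2. In WT cells at 0 h, with 3 called, leaving out one library gave 1 to 3. In WT cells, atg6 in polysomes between 6 h and 0 h missed the threshold in a fit of these libraries alone (0.89, adjusted p = 0.0545).

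The replicate block changed no call beside those of atg6 in eIF2α.S52A polysomes and of atg6 and atg14 in WT total mRNA. Of 1070 member values recomputed, 76 that were called on neither side changed sign, from main values of at most 0.53 in size. With 2 libraries a group and 37 to 154 counts for atg2 and atg14 in eIF2α.S52A polysomes at 0 h, differences of the sizes seen between the strains were not resolved with this depth and replication. The causes of these shifts were not tested.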
